A study of Mus musculus with 8 samples.

Results

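The 9 genes described here, of 38392 measured, were Tgm2 and 8 genes of transforming growth factor beta (TGF-beta) signalling: the ligand Tgfb1, the receptors Tgfbr1 and Tgfbr2, the Smads Smad2, Smad3 and Smad7, and the nuclear corepressors Skil and Tgif1. They were found by their gene symbols. Tgm2 was chosen by its rise, since it was among the largest rises between the tissues, so its difference is given as a description with no test. The other 8 were picked for their roles in the pathway, with earlier results of these data known.

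RNA-seq was performed on eosinophils sorted from the bone marrow and the small intestine (SI) of untreated wildtype female mice of the strain C57/BL6, with 4 libraries from each tissue. The bone marrow gate was CD11b+ Ly6G- Ly6C- SiglecF+ with high side scatter, and the intestinal gate was CD11b+ MHC-II- SiglecF+ with high side scatter. According to the methods of the study, the intestine was stripped of epithelium, digested with enzymes at warm temperature and enriched on anti-CD11b beads before sorting, whereas marrow was flushed and sorted with neither digestion nor beads. Tissue and handling therefore cannot be told apart in any value below. Libraries carry the names of their columns: BM_1, BM_3, BM_4 and BM_5 came from bone marrow, and SI_6, SI_7, SI_10 and SI_11 from small intestine. According to the study each replicate is a mouse, while the column names gave the tissue but not the single sample.

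TGF-beta is secreted in a latent complex and must be released from it before it can bind. The active ligand joins a type II and a type I receptor kinase, which phosphorylate Smad2 and Smad3. These enter the nucleus with Smad4 and switch genes on or off, while inhibitory Smads and corepressors of the Ski and Tgif families hold the response back. In the intestine the pathway is known for its part in tolerance, IgA class switching and repair of the barrier. Tgm2 encodes tissue transglutaminase, a calcium-dependent enzyme that cross-links proteins in the extracellular matrix and that is the autoantigen of coeliac disease.

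Each library held between 11508002 and 21289164 reads in genes. A normalised count is a gene's number of reads after division by the library's size factor. The eosinophil label was checked against 10 marker genes, and the tissues differed in which of them they expressed. The surface receptor genes Siglecf, Ccr3 and Il5ra were higher in SI. Mean normalised counts in bone marrow and SI were 579.9 and 3076 for Siglecf, 70.9 and 16351 for Ccr3, and 11.0 and 1107 for Il5ra. The granule genes Epx, Prg2, Prg3, Ear1 and Ear2 were lower in SI. The bone marrow libraries also held between 358613 and 448177 normalised counts of 10 granule genes of neutrophil precursors (482 to 625 in SI). The sum of the 10 eosinophil genes was 2703 to 4731 in bone marrow and 33422 to 46193 in SI. Alox15 and Ccr3, with SI means of 19775 and 16351 normalised counts, made up most of the SI sum, and both were higher there. Ear6 had 108 in bone marrow and 40.1 in SI (limma adjusted p = 0.128). In bulk samples such as these, fewer cells of a type and less RNA per cell cannot be told apart.

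The start regions of 5 of the 9 genes, Tgfb1, Tgfbr1, Tgfbr2, Smad3 and Tgif1, were in the RefSeq promoter table used here (GRCm38.p6, 250 bases before to 50 after the start). Those of Tgm2, Skil, Smad2 and Smad7 were not in that table. Smad3 and Smad4 are known to bind the short letters CAGAC. The palindrome GTCTAGAC holds AGAC, the end of these letters, on both strands, but not CAGAC itself. The 150 bases furthest upstream, from 250 to 101 before the start, are shown on the gene's own strand for Tgfbr2, the first of 5 windows of Tgif1, the first of 2 windows of Tgfbr1, and Tgfb1. The first 3 of these genes rose and Tgfb1 did not. Capitals mark CAGAC, read on both strands (GTCTG on the other).
Tgfbr2 chr9:116175464-116175613, minus strand: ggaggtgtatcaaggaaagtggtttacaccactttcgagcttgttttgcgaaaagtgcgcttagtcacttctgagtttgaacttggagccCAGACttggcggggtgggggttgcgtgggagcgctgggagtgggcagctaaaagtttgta
Tgif1 chr17:70853633-70853782, minus strand: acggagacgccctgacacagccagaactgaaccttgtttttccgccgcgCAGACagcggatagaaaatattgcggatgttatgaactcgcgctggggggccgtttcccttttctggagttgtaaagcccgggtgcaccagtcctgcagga
Tgfbr1 chr4:47352972-47353121, plus strand: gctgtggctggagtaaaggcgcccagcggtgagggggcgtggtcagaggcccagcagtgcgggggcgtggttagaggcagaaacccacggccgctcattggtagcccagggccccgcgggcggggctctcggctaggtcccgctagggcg
Tgfb1 chr7:25686752-25686901, plus strand: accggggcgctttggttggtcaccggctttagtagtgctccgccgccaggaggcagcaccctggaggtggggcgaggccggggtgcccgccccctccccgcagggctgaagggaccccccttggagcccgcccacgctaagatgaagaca
CAGAC began at base 91 of the stretch of Tgfbr2 and at base 50 of that of Tgif1. No match was found in the 300 bases of the first Tgfbr1 window, of Tgfb1 or of Smad3. The second Tgfbr1 window held a match at base 48, and of the other 4 Tgif1 windows 2 held matches and 2 held none. CAGAC on either strand was in 49.6% of all 32851 windows of the table, and GTCTAGAC was in 0.213% of them and in none of those of the 5 genes. The matches are letters in a window, and binding was not measured.

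Of the 8 pathway members other than Tgm2, 6 were higher in SI at a limma adjusted p under 0.05 and 2 were not called. The receptors and corepressors rose most, Smad3 and Smad7 rose less, and Tgfb1 and Smad2 did not pass the test. The count reads against a broad background: 34.9% of all 38392 genes were called, 22.0% higher and 12.9% lower, and among the 16308 genes averaging 10 or more normalised counts, to which all 8 belong, 63.4% were called and 35.3% were called higher. In all 8 genes the 4 SI libraries lay on one side of the 4 bone marrow libraries, as they did in 34.3% of all genes and in 67.4% of those averaging 10 or more. The share of members called was thus close to that of other genes of such levels. The median difference of the 8 was 1.74 on the deposited log2 scale, against 0.37 over all genes and 0.16 over genes averaging 10 or more.

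**Figure D1:**
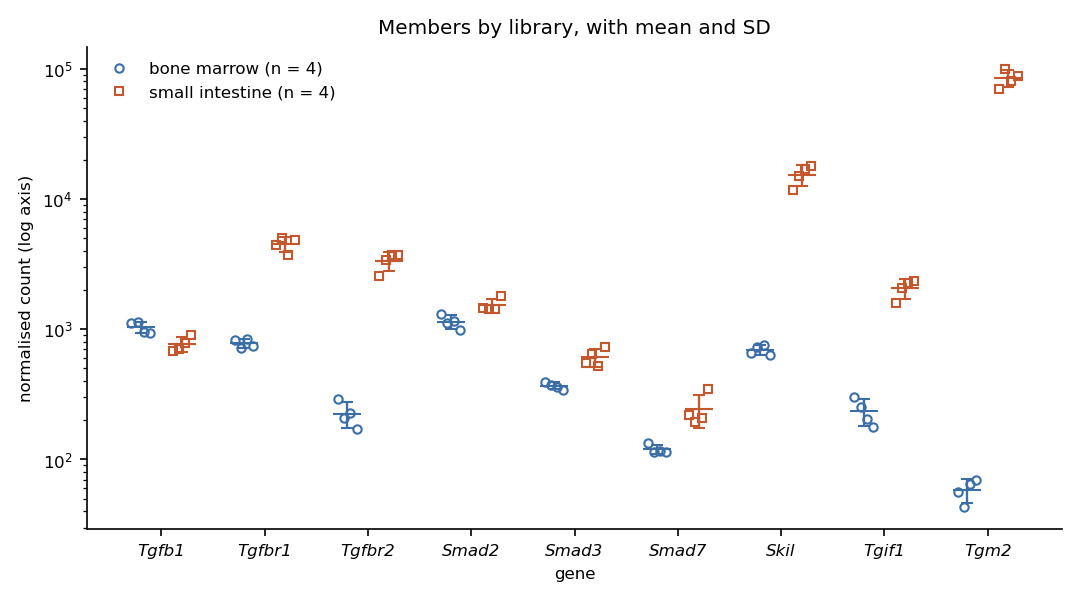
Normalised counts (log axis) of the 9 genes in each library, circles for bone marrow and squares for small intestine, with the mean and SD of 4 libraries. Tgm2 goes from 43.0 to 69.7 in bone marrow up to 69442 to 99707 in SI, while Tgfb1 is the one gene whose SI values lie below its bone marrow values.

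Tgfb1 encodes the main TGF-beta ligand of leukocytes (chromosome 7, 25687002 to 25705077). It had 1110.2, 1133, 946 and 943 normalised counts in BM_1, BM_3, BM_4 and BM_5, and 683, 707, 791 and 902 in SI_6, SI_7, SI_10 and SI_11. The SI libraries were all lower, with SI_11 close to BM_5 and BM_4. The means were 1033 ± 103 and 771 ± 98.8 (SD, n = 4 each), 1.34-fold lower in SI. The difference was -0.42 ± 0.19 (SI minus bone marrow ± SE, deposited log2 scale, limma adjusted p = 0.119), with a 95% interval from -0.85 to 0.00. With a trended prior, in which the expected spread depends on the level, the limma adjusted p was 0.0138. Median-centring, which sets the medians of the libraries equal, gave -1.32 (limma adjusted p = 0.017). Tgfb1 was also called lower with quantile normalisation (0.0373), with a minimum mean of 10 (0.0227) and without BM_5 (0.046) or SI_11 (0.0487), where the values are limma adjusted p.

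Tgfbr1, the type I receptor kinase (chromosome 4, 47353222 to 47414931), rose in SI. It had 821, 716, 838 and 745 normalised counts in the bone marrow libraries and 4448, 5058, 3712 and 4844 in SI_6, SI_7, SI_10 and SI_11. The lowest SI value was 4.43 times the highest bone marrow value. The difference was 2.52 ± 0.19 (limma adjusted p = 2.03e-05), and the means, 780.1 ± 59.0 and 4515 ± 592 (SD, n = 4 each), differed 5.79-fold.

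Tgfbr2, the type II receptor kinase that binds the ligand first (chromosome 9, 116084293 to 116175360), rose more. Its values were 292, 207, 229 and 173 normalised counts in BM_1, BM_3, BM_4 and BM_5, and 2543, 3423, 3738 and 3716 in SI_6, SI_7, SI_10 and SI_11. SI_6 was the lowest SI library and BM_1 the highest bone marrow library. The mean went from 225 ± 50.04 to 3355 ± 559.8 (SD, n = 4 each), 14.9-fold, and the difference was 3.88 ± 0.23 (limma adjusted p = 7.45e-06).

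The receptors stood in different proportion in the tissues. A ratio of reads within a library does not depend on the scaling between libraries. Tgfbr1 had 2.81, 3.45, 3.67 and 4.31 reads per Tgfbr2 read in BM_1, BM_3, BM_4 and BM_5, and 1.75, 1.48, 0.993 and 1.30 in SI_6, SI_7, SI_10 and SI_11. All SI ratios were lower. The mean log2 ratio fell by 1.38, from 1.82 ± 0.25 to 0.44 ± 0.34 (SD, n = 4 each; exact 2-sided permutation test, p = 0.0286, the smallest that 70 assignments can give, and 0.0429 adjusted over the 3 ratios compared). Per exon length the type I receptor had the higher level in every library, between 3.53 and 5.40 times Tgfbr2 in bone marrow and between 1.24 and 2.19 times in SI.

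Smad2 and Smad3 carry the signal from the receptors to the nucleus. Smad2 (chromosome 18, 76241580 to 76310963) had 1319, 1109, 1158 and 995 normalised counts in the bone marrow libraries and 1443, 1419, 1433 and 1792 in SI_6, SI_7, SI_10 and SI_11. The groups did not overlap, and SI_11 stood above the other SI libraries. The difference was 0.41 ± 0.19 (limma adjusted p = 0.133, 95% interval -0.02 to 0.84). With a trended prior the limma adjusted p was 0.0137, and with median-centring the difference turned to -0.49.

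Smad3 (chromosome 9, 63646767 to 63757994) had 395, 376, 361 and 343 normalised counts in BM_1, BM_3, BM_4 and BM_5, and 550.1, 641, 519.6 and 733 in SI_6, SI_7, SI_10 and SI_11. The means were 369 ± 22.2 and 611 ± 96.1 (SD, n = 4 each), a 1.66-fold rise. The difference was 0.71 ± 0.19 (limma adjusted p = 0.0181). Median-centring moved every gene by -0.90 and turned this one to -0.19 (limma adjusted p = 0.77). A rise of Smad3 thus holds with the authors' scaling and not with the medians of the libraries set equal. With the authors' scaling its difference was above the median difference over all genes, 0.37.

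The ratio of Smad2 to Smad3 is free of that scaling. It was 3.34, 2.95, 3.21 and 2.90 reads of Smad2 per read of Smad3 in BM_1, BM_3, BM_4 and BM_5, and 2.62, 2.21, 2.76 and 2.45 in SI_6, SI_7, SI_10 and SI_11. The SI ratios were all lower, with SI_10 close to BM_5. The log2 difference was -0.31 (exact 2-sided permutation test, n = 4 each, p = 0.0286, adjusted 0.0429). Without BM_1 it was -0.27 and without BM_4 -0.29, each with a permutation p of 0.0571.

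Smad7 encodes the inhibitory Smad that blocks the type I receptor and is itself a target of the pathway (chromosome 18, 75367529 to 75395935). It had 135, 114, 116 and 114 normalised counts in the bone marrow libraries and 219, 196, 209 and 345 in SI_6, SI_7, SI_10 and SI_11. All SI libraries were higher, SI_11 most. The means were 119.8 ± 10.1 and 242 ± 69.2 (SD, n = 4 each), 2.02-fold apart, with a difference of 0.96 ± 0.23 (limma adjusted p = 0.0107). With median-centring this was 0.06 (limma adjusted p = 0.933). Against Smad3 within the same library, Smad7 had 0.304 to 0.341 reads per Smad3 read in bone marrow and 0.305 to 0.471 in SI. The log2 ratio differed by 0.26 (exact 2-sided permutation test, n = 4 each, p = 0.114, adjusted 0.114), so a change of the inhibitor beyond that of Smad3 was not shown. Without SI_7 the log2 difference was 0.38 and the permutation p was 0.0286.

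**Figure D2:**
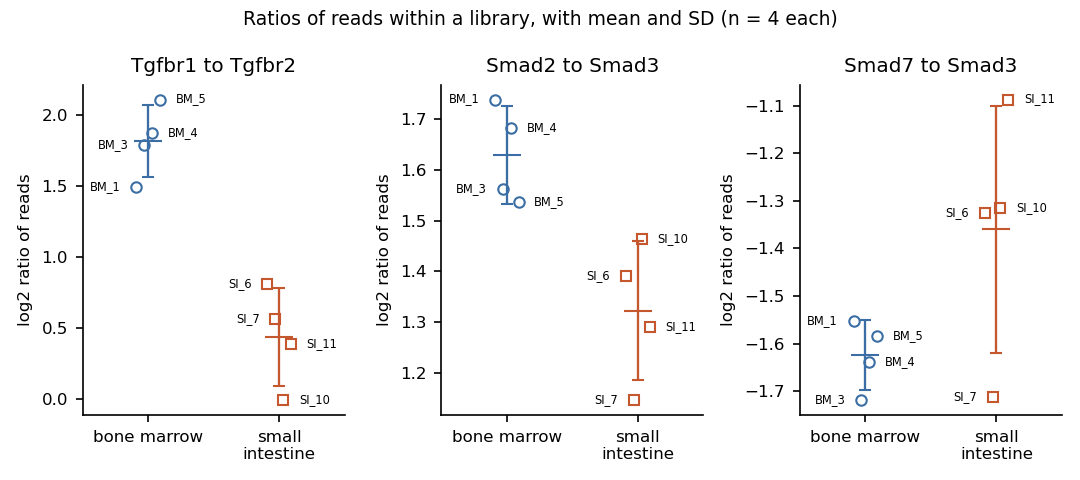
Log2 ratios of reads of Tgfbr1 to Tgfbr2, Smad2 to Smad3 and Smad7 to Smad3 in each library, circles for bone marrow and squares for small intestine, with the mean and SD of 4 libraries. The Tgfbr1 to Tgfbr2 ratio is lower in every SI library, while SI_7 sits among the bone marrow libraries in the Smad7 to Smad3 ratio.

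Skil, the corepressor SnoN that binds Smads on DNA and is degraded when the pathway is switched on (chromosome 3, 31095058 to 31122577), was the pathway member that rose most. It had 658, 736, 758 and 631 normalised counts in BM_1, BM_3, BM_4 and BM_5, and 11650.3, 15041, 17118 and 17792 in SI_6, SI_7, SI_10 and SI_11. The mean went from 696 ± 60.8 to 15400.4 ± 2761 (SD, n = 4 each), 22.1-fold, and the difference was 4.45 ± 0.20 (limma adjusted p = 2.03e-06). The lowest SI value, in SI_6, was 15.4 times the highest bone marrow value.

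Tgif1, a homeodomain corepressor that recruits histone deacetylases to Smads (chromosome 17, 70844205 to 70853546), had 303, 251, 206 and 178 normalised counts in the bone marrow libraries. In SI_6, SI_7, SI_10 and SI_11 it had 1582, 2062, 2269 and 2352. The mean rose 8.80-fold, from 235 ± 54.7 to 2066 ± 345 (SD, n = 4 each), with a difference of 3.13 ± 0.24 (limma adjusted p = 2.4e-05). Both corepressors had their lowest SI value in SI_6 and their highest in SI_11.

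Tgm2 (chromosome 2, 158116402 to 158146436, minus strand) was a rare transcript in bone marrow and an abundant one in SI. It had 73, 66, 68 and 75 reads in BM_1, BM_3, BM_4 and BM_5, that is 55.9, 43.0, 65.1 and 69.7 normalised counts. In SI_6, SI_7, SI_10 and SI_11 it had 69442, 99707, 81189 and 87304. Between 0.000310% and 0.000549% of the bone marrow reads and between 0.447% and 0.625% of the SI reads were those of Tgm2. The means, 58.4 ± 11.8 and 84410.5 ± 12607 (SD, n = 4 each), differed 1444-fold, and the difference on the deposited log2 scale was 10.42 ± 0.22. By mean normalised count per exon length Tgm2 was the gene of rank 12213 in bone marrow and of rank 17 in SI. The lowest SI value, in SI_6, was 996 times the highest bone marrow value.

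In the order of rises Tgm2 had rank 8. The genes just above it were Il1a (10.60) and Il1b (10.49), the interleukin 1 cytokines, and just below it were Cxcl3 (10.33), a neutrophil chemokine, and Acod1 (10.26), which makes itaconate. The genes whose profile over the 8 libraries was most like that of Tgm2 were Cxcl3, Acod1, Cxcl2, Ptgs2 and Rgs1. Their root mean square differences from Tgm2, after each gene's mean was subtracted, were 0.23, 0.28, 0.30, 0.31 and 0.31 on the deposited log2 scale. Cxcl2 is a chemokine, Ptgs2 an inducible prostaglandin synthase and Rgs1 a brake on chemokine receptor signalling. With 4 libraries of each of the tissues the measure mainly reflects the size of the rise. Rprd1b lies on the opposite strand and overlaps Tgm2. Its means were 1083 normalised counts in marrow and 1932 in SI, and without a stated strand setting the reads of the overlap cannot be told apart.

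Per exon length the order of the 9 genes changed between the tissues. In bone marrow it ran from Tgfb1 (205 normalised counts per 1000 exon bases) through Smad2 (130.4), Tgfbr1 (119), Skil (71.8), Smad3 (66.5), Tgif1 (41.7), Tgfbr2 (27.5) and Smad7 (26.5) to Tgm2 (12.7). Of the 8 neighbouring pairs in that order 4 overlapped in their libraries, namely Smad2 with Tgfbr1, Skil with Smad3, Tgif1 with Tgfbr2 and Tgfbr2 with Smad7. In SI it ran from Tgm2 (18318) through Skil (1589), Tgfbr1 (691), Tgfbr2 (409.8), Tgif1 (367), Smad2 (173), Tgfb1 (153) and Smad3 (110.2) to Smad7 (53.6). There 2 neighbouring pairs overlapped, Tgfbr2 with Tgif1 and Smad2 with Tgfb1. The ligand thus went from the first place to the seventh and Tgm2 from the last place to the first.

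**Figure D3:**
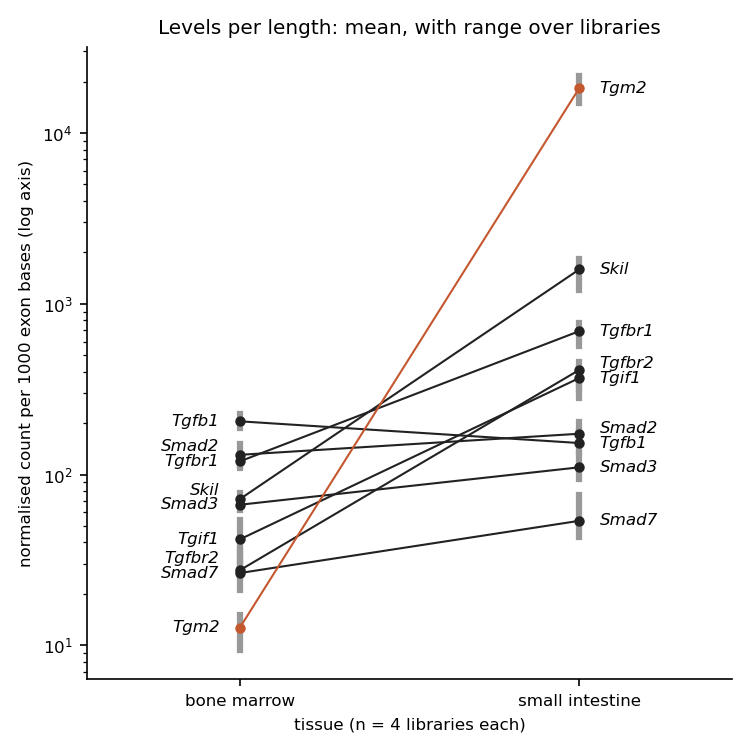
Mean normalised count per 1000 exon bases (log axis) of the 9 genes in bone marrow (left) and small intestine (right), with grey bars for the range over 4 libraries. Tgm2 goes from 12.7, the lowest, to 18318, the highest, and Tgfb1 falls behind the receptors and corepressors.

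The other 39 genes of the TGF-beta pathway list, which was also written with earlier results known, moved mostly upward. Limma called 24 of them, 22 higher and 2 lower (background 22.0% and 12.9% of all genes), and their median difference was 1.36. Of the 39 genes, 36 averaged 10 or more normalised counts. Among all 16308 genes of such levels, 5752 (35.3%) were called higher and 4585 lower. The largest rises were those of a gene that activates the ligand, Thbs1, and a target gene, Cdkn1a, while genes that pass or limit the signal inside the cell moved by less. With median-centring 14 of the 39 were called higher and 5 lower.

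The other ligand genes, Tgfb2 and Tgfb3, were both near 0 in bone marrow and called higher in SI. Tgfb2 averaged 3.43 ± 1.78 normalised counts in marrow and 48.4 ± 14.3 in SI (SD, n = 4 each; difference 2.997 ± 0.31, limma adjusted p = 0.000132). Tgfb3 had 2.97 ± 2.47 and 15.5 ± 5.66. Per exon length both stayed far under Tgfb1 in SI, at 8.36 for Tgfb2 and 4.59 for Tgfb3 against 153 normalised counts per 1000 exon bases. Since Tgfb3 had a mean under 10, where the constant prior gave too many calls in simulated data, its limma adjusted p with a trended prior is given too: 0.0159, against 0.00727. The difference of Tgfb3, 1.73, was 0.83 with median-centring (limma adjusted p = 0.15) and 0.74 with quantile normalisation (limma adjusted p = 0.0586), so its call was lost under both scalings.

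Of 11 genes that hold the ligand latent or release it, 8 rose and 3 were not called (background 22.0% of all genes called higher, and 35.3% of those averaging 10 or more). Thbs1, thrombospondin 1, which frees TGF-beta from its latent complex, had 269.7, 148, 229.7 and 173 normalised counts in BM_1, BM_3, BM_4 and BM_5, and 116387, 160429, 212981 and 180884 in SI_6, SI_7, SI_10 and SI_11. This was a rise of 9.65 ± 0.28 (limma adjusted p = 2.55e-07). Furin, the protease that cuts the precursor, rose 3.81-fold, from 559.6 ± 27.7 to 2132 ± 442 (difference 1.90 ± 0.21, limma adjusted p = 0.000188). Itgav, the integrin chain that pulls on the latent complex, rose 1.99-fold, from 1016 ± 33.3 to 2017 ± 119. With median-centring both lost their call, with differences of 0.999 for Furin and 0.09 for Itgav (limma adjusted p = 0.0794 and 0.9). Itgb6, which pairs with Itgav, went from 5.72 ± 8.33 to 50.9 ± 27.8 (limma adjusted p = 0.0172), and was not called without BM_1, BM_4, SI_6, SI_7 or SI_10 (limma adjusted p from 0.0522 to 0.0693). Of the proteins that anchor the latent form, 2 rose from single reads: Ltbp4 from 2.46 ± 1.98 to 122 ± 50.6 and Lrrc32, which encodes GARP, from 1.19 ± 1.41 to 54.2 ± 6.38 (limma adjusted p = 0.000123 and 0.000106). Ltbp1 and Ltbp2 were called higher as well, and Ltbp3 was not called. Nrros, which anchors the latent form on myeloid cells and had the highest level per exon length of the anchors in both tissues, had 3038 ± 185 and 2578 ± 487 and was not called (limma adjusted p = 0.384).

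Among 4 further receptors and co-receptors, Acvrl1 alone was called, at 7.76 ± 4.52 normalised counts in marrow and 36.6 ± 7.35 in SI. The background was 22.0% of all genes called higher, and 35.3% of those averaging 10 or more. The decoy receptor gene Bambi had 44.5 ± 19.7 and 77.6 ± 19.4 (limma adjusted p = 0.0921), and the co-receptor gene Eng 36.4 ± 5.998 and 53.1 ± 12.99 (limma adjusted p = 0.165). With a trended prior the limma adjusted p was 0.0421 for Bambi and 0.194 for Eng. Smad4, the partner of Smad2 and Smad3, rose 2.58-fold, from 442 ± 46.3 to 1142 ± 116 (difference 1.36 ± 0.18, limma adjusted p = 0.000519). With median-centring the differences were 0.46 for Smad4 and 1.04 for Acvrl1, and neither was called (limma adjusted p = 0.446 and 0.0656). Zfyve9, the anchor SARA that presents Smads to the receptor, rose from 16.7 ± 6.03 to 87.7 ± 49.2. Tgfbrap1, a receptor adaptor, had 640.3 ± 22.0 and 521 ± 66.7 and was not called.

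Of 8 inhibitors besides Smad7, 2 rose and 1 fell (background 22.0% and 12.9% of all genes, and 35.3% higher among those averaging 10 or more). Smurf1, a ubiquitin ligase that removes the receptors, rose 3.80-fold (119 ± 19.5 to 454 ± 52.3, difference 1.90 ± 0.20), and Pmepa1, which keeps Smads from the receptor, rose from 6.78 ± 5.72 to 74.3 ± 26.5. Strap, which works with Smad7 at the receptor, fell 1.87-fold, from 1686 ± 84.4 to 901 ± 104 (difference -0.91 ± 0.18, limma adjusted p = 0.00398). Smurf2 had 1604 ± 149 and 2152 ± 159 and Trim33, a ligase for Smad4, 2238 ± 49.4 and 2761 ± 450.2 (limma adjusted p = 0.0967 and 0.292). With a trended prior the limma adjusted p was 0.00489 for Smurf2 and 0.0745 for Trim33. The corepressors Ski and Tgif2 both rose, as their relatives Skil and Tgif1 did: Ski from 494 ± 32.5 to 2555 ± 274, 5.17-fold (difference 2.36 ± 0.18, limma adjusted p = 2.18e-05), and Tgif2 from 14.6 ± 4.82 to 33.0 ± 1.78. All 4 corepressor genes of the list, members included, were thus called higher, and Tgif2 lost its call with median-centring (0.14) and with quantile normalisation (0.29, limma adjusted p = 0.517). Of the coactivators, Crebbp rose 2.05-fold (2889 ± 120.3 to 5930.4 ± 546), whereas Ep300 had 5260.2 ± 249.6 and 5492 ± 408 (limma adjusted p = 0.803). With median-centring the differences were 0.9997 for Smurf1 and 0.13 for Crebbp, without a call (limma adjusted p = 0.0797 and 0.841).

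Known target genes of the pathway, which other signals also switch on, were higher for 4 of 7 and lower for 1. The background was 22.0% and 12.9% of all genes, and 35.3% higher among those averaging 10 or more. Cdkn1a, the cell cycle inhibitor p21, had 73.6, 125, 79.4 and 52.1 normalised counts in the bone marrow libraries and 2673, 3717, 5167 and 5905 in SI_6, SI_7, SI_10 and SI_11 (difference 5.66 ± 0.34, limma adjusted p = 7.45e-06). The SI libraries were all far above those of bone marrow. Tgfbi, a matrix protein, rose from 253 ± 55.0 to 2394 ± 384. Ccn2, connective tissue growth factor, had no reads in any bone marrow library and 15.3 to 26.1 normalised counts in SI. Klf10 had 439 ± 52.4 and 590.4 ± 79.0 (limma adjusted p = 0.133, and 0.0265 with a trended prior). Itgae, the integrin chain CD103, fell 2.03-fold from 102 ± 9.80 to 50.2 ± 4.56 (limma adjusted p = 0.00271).

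**Figure D4:**
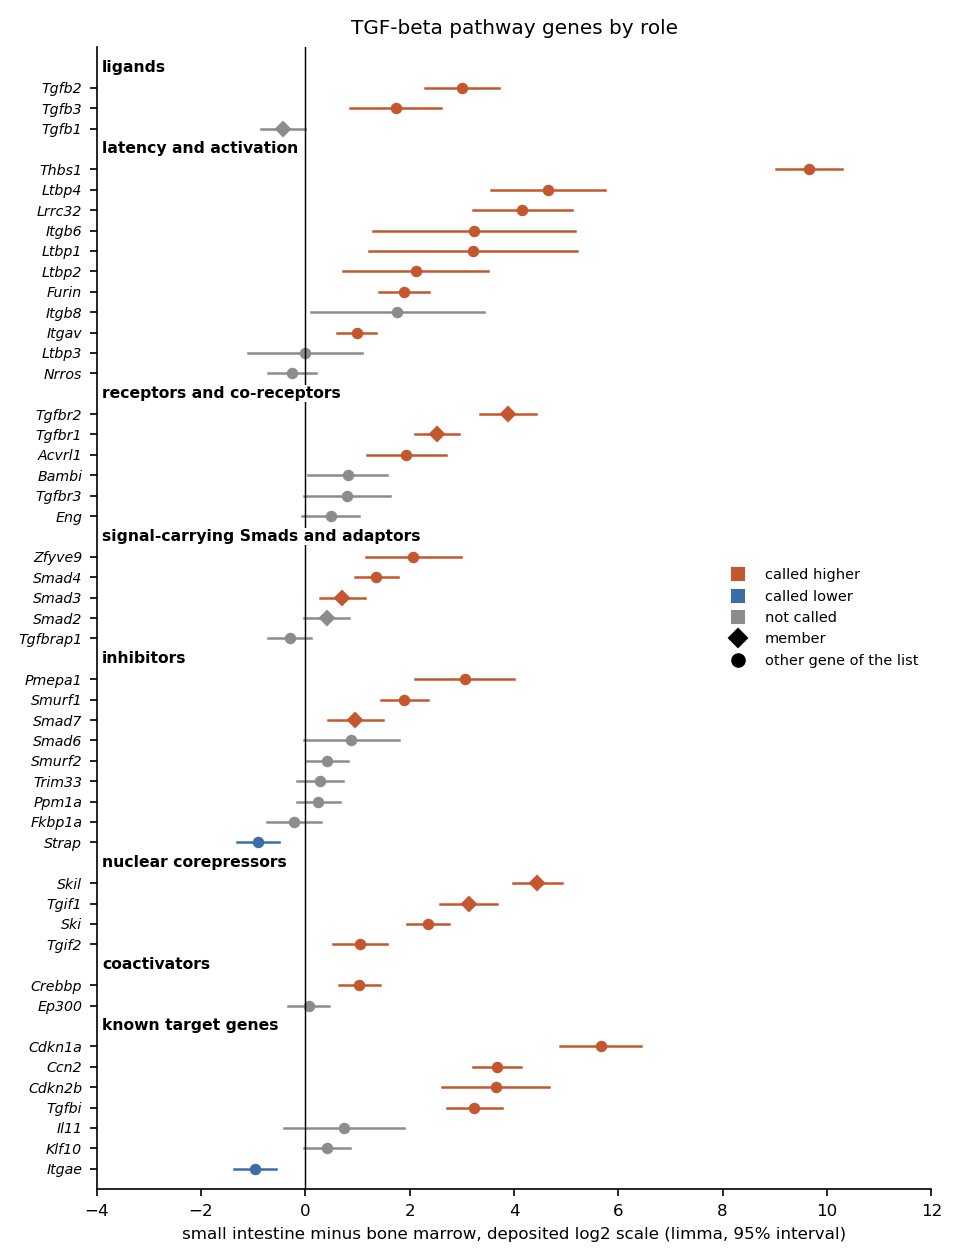
Differences between small intestine and bone marrow (deposited log2 scale, limma, with 95% intervals, 4 libraries each) for the 47 genes of the TGF-beta pathway list by role, diamonds for the 8 members. Thbs1 (9.65) and Cdkn1a (5.66) stand furthest to the right, and Strap (-0.91) and Itgae (-0.97) are the genes called lower.

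Of the other 8 transglutaminase family genes, 1 was called higher and 1 lower, against 34.9% of all genes called. Tgm1, the keratinocyte enzyme, had 20.7, 37.2, 41.1 and 28.8 normalised counts in BM_1, BM_3, BM_4 and BM_5, and 142, 157, 228 and 244 in SI_6, SI_7, SI_10 and SI_11 (difference 2.46 ± 0.28, limma adjusted p = 0.000223). F13a1, which encodes the clot-stabilising factor XIII and is known from macrophages and platelets, went the other way, from 978, 1068, 899 and 727 to 21.8, 26.3, 21.9 and 0 (difference -6.04 ± 0.83, limma adjusted p = 0.000628). Tgm3, Tgm4, Tgm5, Tgm6 and Tgm7 had means between 2.73 and 14.4 in either tissue and were not called, nor was Epb42, which encodes an inactive relative in red cells (25.5 ± 8.29 and 29.2 ± 14.9). Among the bone marrow libraries BM_5 had the highest value of all 5 of these Tgm genes, 9.30 to 27.9, and without it 5 of the 8 family genes were called: Tgm3, Tgm5 and Tgm7 besides Tgm1 and F13a1. Per exon length Tgm1 had the next highest level of the family in SI, at 60.9 normalised counts per 1000 bases against 18318 for Tgm2.

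Markers of other cell types moved with the tissue as well. The summed normalised counts of 11 macrophage and dendritic cell genes were 550 to 666 in bone marrow and 14685 to 17643 in SI, with 9 of 11 higher. Adgre1, which eosinophils also express, made up 13672 of the SI mean, while C1qa, C1qb and C1qc had 76.8, 185 and 115. Of 10 endothelial genes 8 were higher (487 to 611 and 7568 to 9930 in sum), with Pecam1, also a leukocyte gene, at 8162, and Cdh5 at 95.01. Of 8 fibroblast genes 7 were higher (26.8 to 85.5 and 192 to 791), and of 10 epithelial genes all were (66.98 to 126 and 5109 to 34670). Of 6 platelet and megakaryocyte genes, a source of thrombospondin 1, 2 were higher and 1 lower (147 to 266 and 779 to 1072 in sum). Ppbp had 70.4 in bone marrow and 468 in SI, Itga2b 20.3 and 446, Pf4 11.5 and 17.3, and Gp9 89.6 and 4.19. Of 4 plasma cell genes 3 were higher (14.3 to 98.8 and 3925 to 26274 in sum, highest in SI_6), and Igha made up 13597 of the SI mean. Of 6 T cell genes 3 were higher (28.0 to 67.9 and 151 to 205). Mast cell genes were lower for 2 of 5 (2527 to 3531 and 551 to 1848) and erythroid genes for 4 of 5 (584 to 752 and 43.9 to 97.1). Kit made up nearly all of the mast cell sum, with means of 3031 in bone marrow and 1189 in SI. Mcpt4, Tpsb2 and Cma1 averaged at most 2.88 in either tissue. None of the markers in these 9 lists was at 0 in all SI libraries. Their part in the rises of Tgm2, the receptors, the corepressors, Thbs1 and the other pathway genes was not tested. The 10 granule genes of neutrophil precursors summed to 358613 to 448177 in bone marrow and 482 to 625 in SI. The part of such cells in the bone marrow values, and so in any rise or fall given here, was not tested either. Ltbp4, Itgb6 and Zfyve9 had the same order over the SI libraries as the fibroblast sum, from SI_6 down to SI_11, and Lrrc32 did not. SI_6 had the highest fibroblast and epithelial sums and the lowest SI values of Tgm2, Skil, Tgif1, Tgfbr2 and Tgfb1. Without SI_6 the difference of Tgm2 was 10.51.

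The 14 genes of a list of early response genes that cell dissociation is known to raise, such as Fos, Dusp1 and Atf3, were all higher in SI. Their sum was 1195 to 1592 normalised counts in bone marrow and 97445, 98406, 120170 and 130141 in SI_6, SI_7, SI_10 and SI_11. Skil, Tgif1 and Tgfb1 had the same order over the SI libraries as this sum, from SI_6 to SI_11. Of these, Tgfb1 had its SI values below those of bone marrow. Other genes such as Cdkn1a, Furin, Tgm1 and Trim33 also had this order, and Tgm2 did not. This order is the exact reverse of that of the fibroblast sum, so following the one and opposing the other cannot be told apart. With 4 libraries a relation was not tested, and the part of handling cannot be told apart from that of the tissue.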

How the data were processed

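RNA-seq of sorted eosinophils was available as 1 table of 38392 genes in 8 libraries, 4 each from bone marrow and small intestine. The authors processed reads with the nf-core RNA-seq pipeline against GRCm38 and deposited variance-stabilised values from DESeq2 (R 4.0.3 per the labels), which are log2-like and compress low counts. Which aligner was run, whether strand was used and how multi-mapping reads were counted is not given in the sources used here. Inverting the transformation gave whole reads for 100% of genes in every library (tolerance 0.05 reads) and size factors between 0.721 and 1.53. Coordinates and exon lengths came from GENCODE M21.

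Tissues were compared with limma 3.58.1 (R 4.3.3) on the deposited log2 values, constant prior, no covariate or filter, 2-sided, with Benjamini-Hochberg adjustment over all 38392 genes and a threshold of 0.05. limma took the place of the count model of the authors because the deposited unit is log2. Tested on simulated data, the constant prior gave excess calls among genes with a mean under 10 normalised counts and recovered fewer small changes than a trended prior. Within-library ratios of reads were compared with exact permutation tests. Alternatives were median-centring, quantile normalisation, a minimum mean of 10 normalised counts, a trended prior, voom on the recovered reads, and leaving out each library. Python 3.11.15 (pandas 2.3.3, numpy 2.4.6) served for the other steps, and matplotlib 3.10.9 for the plots.

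The members, gene lists and marker lists were chosen with earlier results of these data known, and 1 gene of the pathway list is not reported here. Named were all members, any gene of the pathway lists (in each role first the largest called rise, the largest called fall and the most abundant gene), all transglutaminases, the 5 genes most like Tgm2 and the 2 next above and below it in the order of rises, without predicted genes, clones and pseudogenes.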

Additional observations from a re-analysis of the deposited data

Results flagged for a closer look

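Among 118 groups of 4 libraries (the genes given with values and the 3 ratios, each in each tissue), 9 had a library that stood apart from the others by more of the group's range than the limit of Dixon's test for 4 values. Chance gives about 1 in 20, which is 5.9 of 118.

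For the members, Smad2 in small intestine had its highest value in SI_11, 0.927 of the range away from the next library, and Smad7 in bone marrow had its highest in BM_1, at 0.914. Ep300 in small intestine had its lowest value in SI_10 (0.849), Bmp2 in bone marrow was at 0 reads in BM_1 alone (0.851), and Smad5 in bone marrow was highest in BM_4 (0.869). Bmp4 and Tgm5 in bone marrow had reads in BM_5 alone, each with a gap of 1, the whole range, because the other libraries were at 0. Tgm5 in small intestine was highest in SI_10 (0.902). F13a1 in small intestine had 0 reads in SI_11 alone (0.941).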

How the results depend on the processing

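Median-centring moved every difference by -0.90, to a median of -0.53 over all genes (0.37 with the authors' size factors, -0.03 with quantile normalisation), and Tgm2 to 9.52. Of the 38392 genes 22084 averaged under 10 normalised counts, so the medians that it sets equal largely reflect genes with few reads. It gave 4285 calls higher and 10216 lower over all genes, 14 higher and 5 lower among the other pathway genes, and 5 lower among the BMP and activin genes. Quantile normalisation gave 4 lower in each of these lists. Differences that changed sign with median-centring were Smad2 (-0.49), Smad3 (-0.19), Smad1 (-0.038), Bambi (-0.085), Eng (-0.42), Smurf2 (-0.48), Trim33 (-0.61), Ep300 (-0.84), Klf10 (-0.48), Tgm3 (-0.23), Tgm4 (-0.12), Tgm6 (-0.024) and Epb42 (-0.85). With quantile normalisation they were Eng (-0.066), Trim33 (-0.055), Ep300 (-0.54), Tgm3 (-0.43), Tgm4 (-0.26), Tgm6 (-0.000287) and Epb42 (-0.72). Leaving out 1 library at a time gave Epb42 values from -0.18 (without SI_7) to 0.48 (without SI_11). It gave 1 to 3 BMP and activin genes called lower (1 without BM_3 or BM_4, where Id2 was lost), 2 to 5 transglutaminase genes (5 without BM_5), a log2 change of the Smad2 to Smad3 ratio from -0.35 to -0.25, and of the Smad7 to Smad3 ratio from 0.17 to 0.38. Tgfb1 was called lower with median-centring, quantile normalisation, the minimum mean, the trended prior and voom, and without BM_5 or SI_11. With median-centring Smad3 and Smad1 lost their call, as did 10 other genes: Smad7, Tgfb3, Furin, Itgav, Acvrl1, Smad4, Smurf1, Tgif2 and Crebbp (values in the report) and Acvr1b (0.52). The cause of these changes was not tested. Of 56 tested genes given with values 38 were called, and 24 of these kept their call and direction under every alternative that included them. The ratio of Tgfbr1 to Tgfbr2 kept its direction and its side of the threshold throughout. Among genes with few reads the counting error is larger, and its size was not measured. No paired analysis was possible because no number is shared between bone marrow and intestinal libraries.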

Other observations

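The neighbouring branch of the family, bone morphogenetic proteins (BMPs) and activins, signals through related receptors, and its BMPs through Smad1, Smad5 and Smad9. Of 23 genes listed for it, limma called 14 higher and 2 lower in small intestine (background 22.0% and 12.9% of all genes), with a median difference of 1.82. Of the 23, 6 had a mean under 10 normalised counts, and among all genes averaging 10 or more 35.3% were called higher. Inhba, the activin A subunit, fell 33.5-fold: it had 383, 679, 402 and 696 normalised counts in BM_1, BM_3, BM_4 and BM_5, and 14.2, 9.71, 24.1 and 16.6 in SI_6, SI_7, SI_10 and SI_11 (difference -4.78 ± 0.31, limma adjusted p = 1.19e-05). The groups were far apart, and Inhba was the one ligand called lower. Inhbb, another activin subunit gene of the list, was called higher. Bmp2 went from at most 1.30 normalised counts in bone marrow to between 34.4 and 79.7 in SI (difference 4.21 ± 0.34, limma adjusted p = 3.57e-05).

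Of 8 receptors of this branch, 6 were called higher (background 22.0%, and 35.3% among genes averaging 10 or more), and Bmpr1b and Acvr2b were not called. Bmpr2, the type II receptor of BMPs, rose 4.69-fold, from 422 ± 38.0 to 1980.0 ± 147 (SD, n = 4 each; difference 2.22 ± 0.17, limma adjusted p = 2.86e-05). Acvr2a, an activin receptor, rose from 84.0 ± 7.22 to 405 ± 53.8 and Acvr1b, which phosphorylates Smad2 and Smad3, from 313 ± 43.4 to 838 ± 70.5, a call that median-centring removed (0.52, limma adjusted p = 0.389). Smad1 had 185 ± 14.6 and 343 ± 61.3 (difference 0.86 ± 0.20, limma adjusted p = 0.00982) and Smad5 had 1105 ± 89.1 and 938 ± 135 (limma adjusted p = 0.374).

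The inhibitors of differentiation, classical BMP target genes, did not move one way. Id3 had 0 reads in the bone marrow libraries and 171, 69.3, 17.5 and 33.2 normalised counts in SI_6, SI_7, SI_10 and SI_11. Id2 fell 1.70-fold, from 349 ± 43.9 to 205 ± 42.8 (difference -0.77 ± 0.21, limma adjusted p = 0.0224). Id1 had 182, 158, 167 and 142 in bone marrow and 171, 58.2, 28.4 and 33.2 in SI (limma adjusted p = 0.0508, and 0.00476 with a trended prior). Id1 and Id3 were highest in SI_6 among the SI libraries, as was Bmp4 with 46.9, and SI_6 also had the highest epithelial sum of 34670. Whether that bears on their values was not tested.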
